A study of Mus musculus with 10 samples.

Results

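The genes described here encode the subunits of the receptors for glutamate, GABA and glycine, the main fast transmitters of the brain and spinal cord. They were chosen by symbol alone. All protein-coding autosomal genes of the mm9 GENCODE annotation were taken whose symbol begins with Gria, Grik, Grin, Grid or Grm and a digit, or with Gabr, Glra or Glrb. This gave 45 genes of 21418. There were 3 AMPA receptor genes, 5 kainate, 7 NMDA, 3 delta, 8 metabotropic glutamate, 16 GABA-A and 3 glycine receptor genes. One of them does not carry what its prefix implies: Grid2ip encodes a scaffold protein of the synapse and not a subunit. Subunit genes on the X chromosome, such as Gria3 and Gabra3, lie outside the rule.

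Peaks came from cross-linked ChIP-seq of J1 ESCs, a mouse embryonic stem cell line grown on feeder cells with serum and leukemia inhibitory factor, and of NSCs, neural stem cells made from J1 ESCs in culture and kept in EGF and FGF. Both cell types grew under standard conditions with no other treatment, feeders were depleted from the ESC harvest, and cells were fixed in 1% formaldehyde for 10 min and sheared to about 250 bp. ESCs were profiled for Ring1b, Cbx2, Ezh2 and H3K27me3 and NSCs for Ring1b and H3K27me3, with 1 library for each, so the 6 deposited lists have no replicates and no difference between them has a replicate check. Each list gives only where peaks begin and end, so the depth of each library is unknown.

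Ionotropic receptors are ion channels built from several subunits, and metabotropic receptors signal through G proteins. Most of these genes act mainly in neurons. Polycomb-Group (PcG) proteins hold developmental genes in a repressed state: Ring1b and Cbx2 belong to the complex PRC1, and Ezh2 is the enzyme of PRC2 that places H3K27me3 on histone H3. In mammals PcG proteins are found mainly at start sites rich in CpG dinucleotides.

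A gene was counted as marked in a list when the start of at least 1 of its protein-coding transcripts lay within 1 kb of a peak. Genes with more starts can be marked more easily, and the median number of coding starts was 2 for receptor genes and 1 for all genes. An alternative used only the 5′ end of the gene record. Intervals are exact 95% Clopper-Pearson intervals over genes and cover counting error only. Genes are not replicates of a cell type, and several of these genes are neighbours, so no test was made between the receptor genes and other genes. The main counts over the 45 genes are given beside the share of all 21418 genes. In bulk chromatin, a mark carried by fewer cells and a weaker mark in every cell cannot be told apart.

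Start sites with and without these marks both varied widely in sequence. The 300 bases from 250 before to 50 after a start site of 3 receptor genes are shown in mm9, 5′ to 3′ on the strand of the gene and in lower case, with CpG dinucleotides in capitals. Grm8 (chr6:28084496-28084795, minus strand) is shown because it has the widest ESC peak of the 4 genes that stayed marked in NSCs. Grid1 (chr14:35632761-35633060, plus strand) has the widest of the 15 that were marked in ESCs and not in NSCs. Gabra6 (chr11:42134525-42134824, minus strand) stands for the 16 with neither a peak nor a CpG-rich start, and was taken as first by symbol.
Grm8: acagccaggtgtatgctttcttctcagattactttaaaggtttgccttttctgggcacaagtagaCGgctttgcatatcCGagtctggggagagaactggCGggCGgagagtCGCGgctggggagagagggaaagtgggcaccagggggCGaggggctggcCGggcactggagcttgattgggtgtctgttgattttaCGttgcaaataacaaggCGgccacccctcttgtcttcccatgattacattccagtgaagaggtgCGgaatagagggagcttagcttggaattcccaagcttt
Grid1: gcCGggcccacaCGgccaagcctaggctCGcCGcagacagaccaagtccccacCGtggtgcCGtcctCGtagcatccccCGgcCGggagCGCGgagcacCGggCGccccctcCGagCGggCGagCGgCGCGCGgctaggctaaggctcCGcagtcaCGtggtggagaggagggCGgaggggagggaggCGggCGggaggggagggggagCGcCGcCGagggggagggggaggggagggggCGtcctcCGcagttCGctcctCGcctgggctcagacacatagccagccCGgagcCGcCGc
Gabra6: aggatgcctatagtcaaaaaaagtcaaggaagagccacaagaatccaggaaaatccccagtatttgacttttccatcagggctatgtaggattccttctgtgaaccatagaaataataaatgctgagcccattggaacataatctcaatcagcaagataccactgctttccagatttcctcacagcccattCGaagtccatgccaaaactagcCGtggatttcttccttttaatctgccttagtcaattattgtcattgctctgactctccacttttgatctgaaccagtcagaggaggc
The Grid1 window holds 35 CpGs, a number that 10.1% of the 44027 coding start sites of all genes reach. Grm8 has 11, which 53.6% reach, and Gabra6 has 2, which 90.5% reach. The median over all start sites was 12. The Grm8 window is thus near the median, and its start site lay within 1 kb of a peak in every list except that of Cbx2. Start sites without a peak were not all poor in CpGs: Grik4, among the 10 unmarked genes with a CpG-rich start, has 45 in the same window.

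In ESCs, Ring1b lay at the start of 14 of the 45 receptor genes (31.1%, interval 18.2 to 46.6%), beside 8.74% of all genes. Ezh2 lay at 11 (24.4%, 12.9 to 39.5%), beside 3.88% of all genes. H3K27me3 lay at 17 (37.8%, 23.8 to 53.5%), beside 7.02%. Cbx2 lay at 1 (2.22%, 0.0562 to 11.8%), beside 1.77% of all genes. Any of the 4 marks was found at 19 receptor genes (42.2%, 27.7 to 57.8%), compared with 10.5% of all genes. The shares for Ring1b, Ezh2 and H3K27me3 were therefore well above those of all genes, with the whole interval above the background, and the share for Cbx2 was not.

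In NSCs few receptor genes were marked, and the background share lay inside the interval for each list. Ring1b lay at 1 of 45 (2.22%, interval 0.0562 to 11.8%), close to the 2.62% of all genes. H3K27me3 lay at 4 (8.89%, 2.48 to 21.2%), where the background of 2.86% is inside the interval. Any NSC peak was found at 4 genes (8.89%), beside 4.41% of all genes. A total of 26 receptor genes (57.8%, 42.2 to 72.3%) had no peak of any list at a start, compared with 88.4% of all genes.

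**Figure D1:**
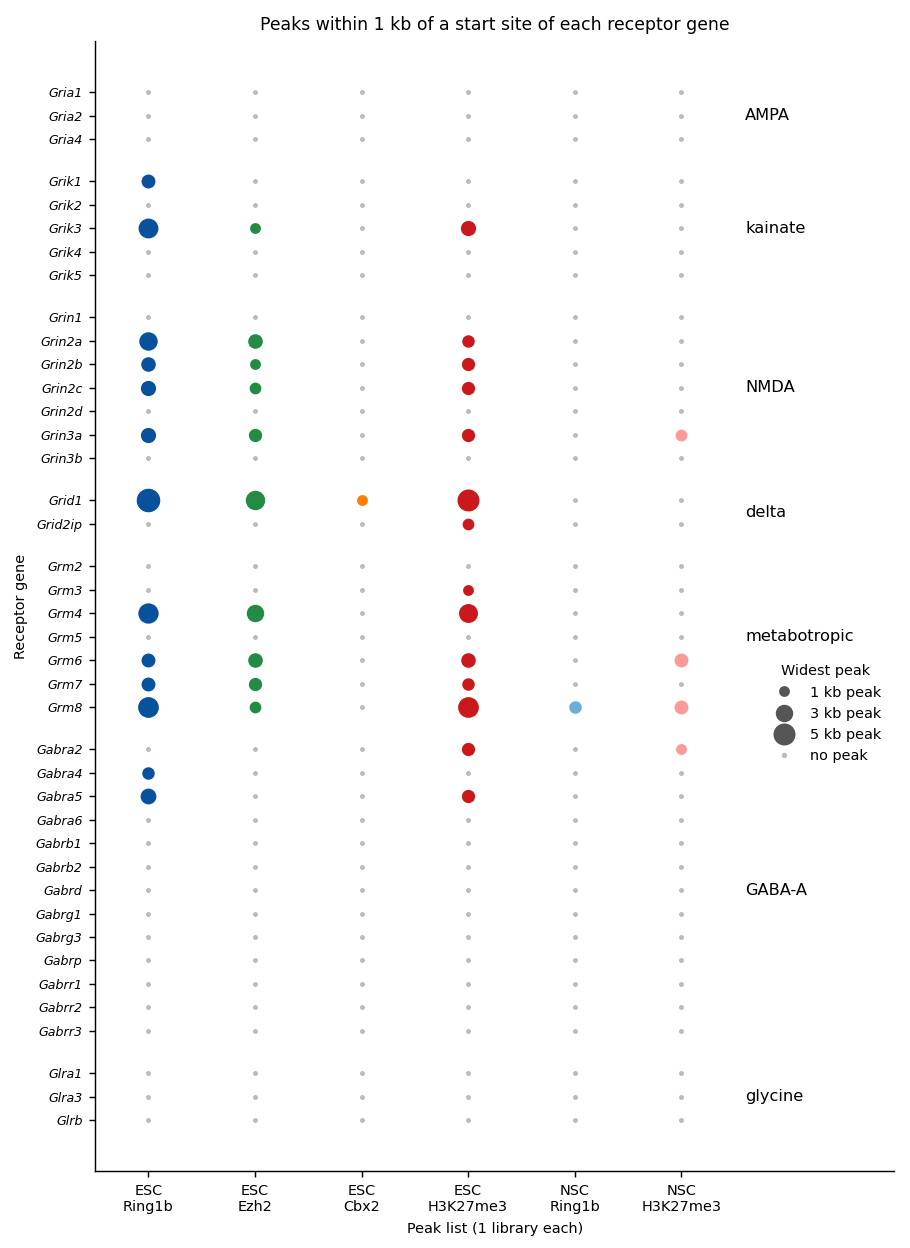
Each row is one of 40 receptor genes and each column a peak list (1 library each). A colored dot marks a peak within 1 kb of a coding start, with dot area proportional to the width of the widest such peak (kb), and a small grey dot marks no peak. The ESC columns of Ring1b, Ezh2 and H3K27me3 hold 13, 10 and 14 colored dots, the Cbx2 column 1 and the NSC columns 1 and 4. The AMPA and glycine receptor genes, 3 of each, have none, as do 88.4% of all genes.

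The AMPA receptors carry most fast excitation in the brain, and none of their 3 genes, Gria1, Gria2 and Gria4, had a peak of any list at a start. Of all genes 88.4% had none, so 3 unmarked genes do not set this family apart. The nearest ESC Ring1b peak was 814 kb from Gria1, 2070 kb from Gria2 and 4100 kb from Gria4. ESC Cbx2 peaks lay nearer to Gria1 (62.7 kb) and Gria4 (270 kb), and farther from Gria2 (2560 kb). Distances of genes outside the receptor set were not measured. Gria2, whose RNA-edited product makes these channels impermeable to calcium, was the receptor gene farthest from any ESC peak, at 2073 kb. Gria2 has a CpG-rich start by the definition given further on, and Gria1 and Gria4, with CpG ratios of 0.350 and 0.494, do not.

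Of the 5 kainate receptor genes, 2 were marked in ESCs, where any ESC list marked 10.5% of all genes. Grik3 had a Ring1b peak of 4000 bp (chr4:125166001-125170000), an H3K27me3 peak of 2200 bp and an Ezh2 peak of 1000 bp, the narrowest width in the lists, that began 257 bp into the gene. Grik1 had only Ring1b, over 1800 bp (chr16:88289201-88291000). Neither had a peak in NSCs. Both encode subunits that can form channels on their own, as does the unmarked Grik2. The genes of the high-affinity subunits Grik4 and Grik5, which need such a partner, had no peak, although the start of Grik4 is among the most CpG-rich of the 45 (ratio of observed to expected CpGs 0.890, GC content 71%).

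NMDA receptors combine the obligatory subunit encoded by Grin1 with subunits of Grin2a to Grin2d, which bind glutamate, or of Grin3a and Grin3b, which bind glycine. The ESC lists marked 4 of the 7 genes, beside 10.5% of all genes: Grin2a, Grin2b, Grin2c and Grin3a. All 4 had the same set, Ring1b with Ezh2 and H3K27me3 and no Cbx2, which 1.87% of all genes had. Grin2a had the widest Ring1b peak of them, 3400 bp (chr16:9993201-9996600), and an H3K27me3 peak at each of its 2 coding starts, of 1400 bp and 1000 bp. At Grin2b the Ring1b peak spanned 2000 bp (chr6:136121401-136123400) and held the downstream of its 2 coding starts, and the Ezh2 peak of 1000 bp lay between them. Grin2c had a Ring1b peak of 2200 bp (chr11:115126801-115129000). Grin3a had Ring1b over 2200 bp (chr4:49857001-49859200), and its Ezh2 and H3K27me3 peaks had identical ends, 1600 bp apart.

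Grin3a was the only NMDA receptor gene marked at a start in NSCs, by H3K27me3 over 1200 bp (chr4:49857201-49858400), inside its ESC peak of the same mark. The other 3 had no NSC peak at a start. For Grin2b an NSC H3K27me3 peak of 1200 bp lay 3740 bp into the gene. It was the call nearest to the 1 kb limit from outside, and the farthest call inside the limit was the Cbx2 peak of Grid1 at 390 bp, so that no call fell between these distances. Grin1, Grin2d and Grin3b had no peak at a start in either cell type, though all 3 have a CpG-rich start.

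Grid1, of the delta group, encodes GluD1, a receptor that organises synapses by binding cerebellins. It had the widest peaks of all 45 genes: Ring1b over 5800 bp (chr14:35630801-35636600), H3K27me3 over 5000 bp and Ezh2 over 3800 bp. It was also the receptor gene with Cbx2, in a peak of 1000 bp (chr14:35633401-35634400), and so the single gene marked in all 4 ESC lists (2.22%), beside 1.49% of all genes. Grid1 had no peak in NSCs. Grid2ip had H3K27me3 alone, 1200 bp wide and 30 bp from an internal start.

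Metabotropic glutamate receptors fall into group I, which activates phospholipase C, and groups II and III, which inhibit adenylyl cyclase. All 4 genes of group III (Grm4, Grm6, Grm7 and Grm8) had Ring1b, Ezh2 and H3K27me3 without Cbx2 in ESCs, beside 1.87% of all genes. No other metabotropic receptor gene had Ring1b or Ezh2 at a start. Of all genes, 8.74% had Ring1b and 3.88% had Ezh2 in ESCs, so that absence is near the background. Grm3, of group II, had H3K27me3 alone, over 1000 bp (chr5:9725001-9726000). Grm2 and Grm5 had no peak at a start. The division into groups is textbook knowledge, but it was laid over the lists after they had been seen, and with 8 genes it was not tested.

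Within group III the extent differed. Ring1b covered 4400 bp at Grm8 (chr6:28082201-28086600) and 4200 bp at Grm4 (chr17:27647601-27651800), and 1800 bp at both Grm6 (chr11:50663801-50665600) and Grm7 (chr6:110595201-110597000). Grm4 had a further Ring1b peak of 1200 bp at its downstream start, about 10 kb into the gene. H3K27me3 covered 4400 bp at Grm8 and 3600 bp at Grm4, compared with 2000 bp at Grm6 and 1400 bp at Grm7. In NSCs Grm4 and Grm7 had no peak. Grm6, the receptor through which retinal ON bipolar cells sense glutamate, had NSC H3K27me3 over 1800 bp (chr11:50663601-50665400) with the same upstream edge as its ESC peak of 2000 bp. Grm8 was the receptor gene with both NSC marks, H3K27me3 over 1800 bp (chr6:28084001-28085800) and Ring1b over 1400 bp (chr6:28084801-28086200). Both were narrower than the ESC peaks of the same marks.

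GABA-A receptors are chloride channels that carry fast inhibition, usually assembled from alpha, beta and gamma subunits. Marks were found at 4 of their 16 genes in ESCs, beside 10.5% of all genes. Among them were the alpha subunit genes Gabra2, Gabra4 and Gabra5. None of the 16 had Ezh2 or Cbx2, beside 3.88% and 1.77% of all genes, so at 16 genes this absence is near the background. Gabra5, an alpha subunit abundant in hippocampus, had Ring1b over 2400 bp (chr7:64763801-64766200) and H3K27me3 over 1600 bp. Gabra4 had Ring1b alone over 1400 bp (chr5:72048401-72049800). Gabra2 had H3K27me3 alone of the ESC marks, over 1600 bp (chr5:71486401-71488000). Gabra2 also had H3K27me3 in NSCs, in a peak of 1000 bp (chr5:71485801-71486800) that overlapped the ESC peak and began 288 bp downstream of the start.

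Most GABA-A receptor genes lie in clusters, and a mark at one gene was not shared by its neighbours in those named here. Of all genes 88.4% had no peak of any list at a start, so unmarked neighbours do not set these clusters apart. On chromosome 5, Gabrg1, Gabra2, Gabra4 and Gabrb1 span 1387 kb. Gabra2 and Gabra4, with 474 kb between them, were marked by different lists, and the other two were unmarked. On chromosome 7, Gabra5 lies 20.5 kb from Gabrg3, which was not marked, although it has a CpG-rich start. Gabra6 and Gabrb2 of chromosome 11, and the rho subunit genes Gabrr1 and Gabrr2 of chromosome 4, had no peak at a start.

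Glycine receptors inhibit neurons of the spinal cord and brainstem. Their 3 autosomal genes, Glra1, Glra3 and Glrb, had no peak at a start in any list, as was so for 88.4% of all genes. The nearest ESC Ring1b peak was 1580 kb, 1230 kb and 1960 kb away. For ESC Cbx2 the distances were 1340 kb, 430 kb and 2670 kb. No such distances were measured for genes outside the receptor set. Over all 26 receptor genes without a mark, the median distance from a start to the nearest ESC peak of any list was 245 kb, and for 5 genes it was under 50 kb. The nearest were 5.62 kb, for Grin1, and 30.4 kb, for Gabrr2.

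**Figure D2:**
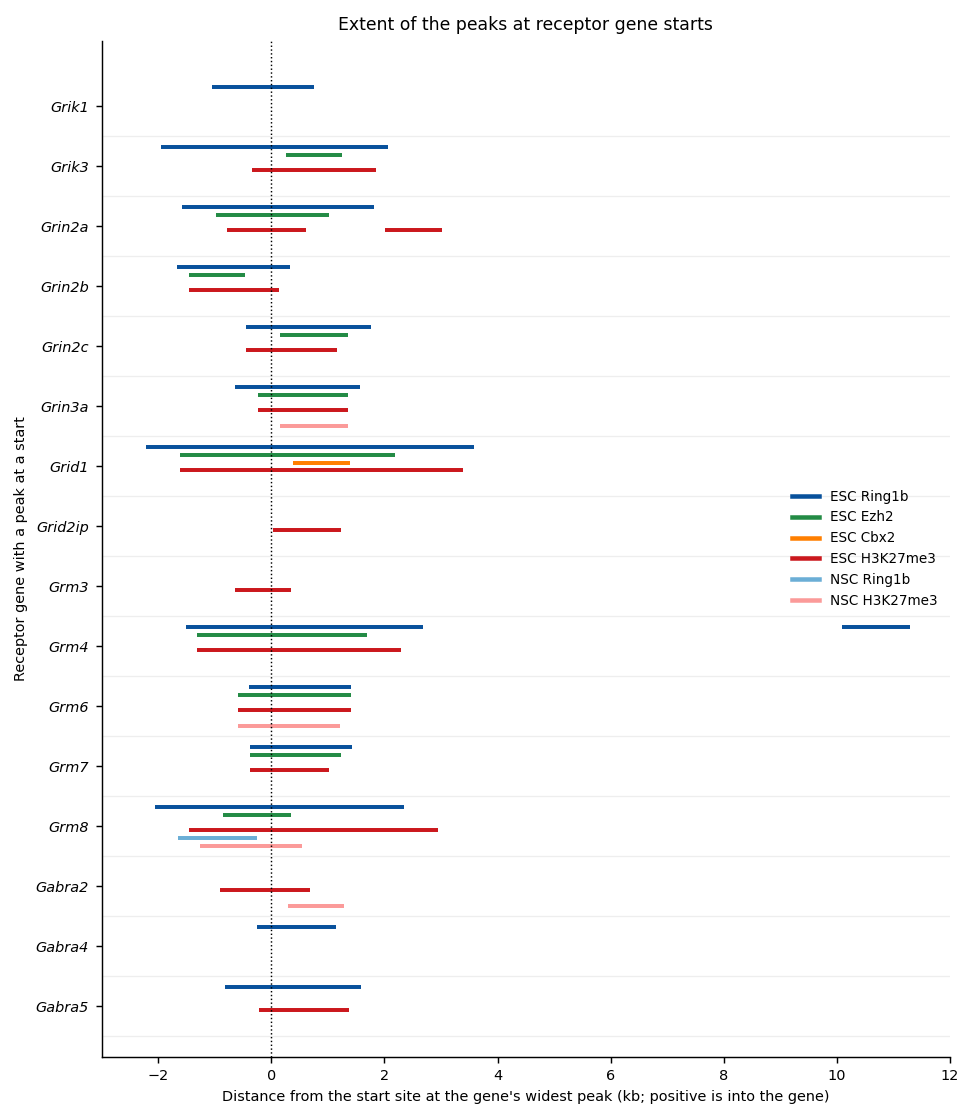
Each row is one of 16 receptor genes with a peak at a start, and each bar is a peak, colored by list, along the distance (kb) from the start site at the gene's widest peak, positive into the gene. Grid1, Grm8 and Grm4 have the longest Ring1b bars, and NSC bars are present at Grin3a, Grm6, Grm8 and Gabra2. The bar near 10 kb at Grm4 lies at its second coding start.

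Marks at receptor genes came in few combinations. Ring1b, Ezh2 and H3K27me3 without Cbx2 were found at 10 genes in ESCs (22.2%, interval 11.2 to 37.1%), beside 1.87% of all genes, among them Grin2a, Grin2b, Grin2c, Grin3a, Grik3, Grm4, Grm6, Grm7 and Grm8. H3K27me3 without any other ESC mark was found at 5 (11.1%, 3.71 to 24.1%), beside 1.49%, among them Gabra2, Grid2ip and Grm3. Ring1b alone was found at 2 (4.44%, 0.543 to 15.1%), beside 2.94%, namely Gabra4 and Grik1. Gabra5 had Ring1b and H3K27me3, and Grid1 had all 4.

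The receptor genes that had Ring1b were also compared with the 1873 genes of the genome that had it in ESCs. Ezh2 was present at 11 of the 14 (78.6%, interval 49.2 to 95.3%), compared with 42.3% of the 1873. H3K27me3 was present at 12 (85.7%, 57.2 to 98.2%), compared with 61.9%, a value within the interval. Cbx2 was present at 1 (7.14%, 0.181 to 33.9%), compared with 19.1%, also within it. The Ezh2 count depended on the distance allowed, and fell to 7 of the 14 when a start had to lie inside a peak. No difference from other Ring1b genes was tested.

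At the starts of receptor genes, many peaks listed in ESCs were absent from the NSC lists, and no gene had Ring1b or H3K27me3 in NSCs alone. Ring1b was found in ESCs and not in NSCs at 13 genes (28.9%, interval 16.4 to 44.3%), beside 6.96% of all genes. It was found in both at 1, Grm8 (2.22%), beside 1.79%, and in NSCs alone at 0 (up to 7.87%), beside 0.831%. H3K27me3 was found in ESCs alone at 13 (28.9%), beside 4.95%. It was found in both at 4 (8.89%), beside 2.07%, and in NSCs alone at 0, beside 0.794%. For either target in NSCs alone, the background share lay inside the interval, so the absence of gains does not set receptor genes apart.

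A peak listed in ESCs and not in NSCs is a difference between calls in 1 library each, and it was not tested. Loss was also the usual course for other genes. Of the 14 receptor genes with Ring1b in ESCs, 1 had it in NSCs (7.14%, interval 0.181 to 33.9%), compared with 20.4% of all such genes. Of the 17 with H3K27me3, 4 had it in NSCs (23.5%, 6.81 to 49.9%), compared with 29.5%. Of the 19 with any ESC mark, 4 had any NSC mark (21.1%, 6.05 to 45.6%), compared with 31.1%. Every background value lay inside the interval, so a difference between receptor genes and other genes in how often a mark was kept was not detectable at these counts. The larger share of receptor genes that lost a mark goes with the larger share that had one in ESCs.

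The median widths of the peaks at receptor genes were below those over all genes in every list, with no test of the difference. For ESC Cbx2 and NSC Ring1b this rests on 1 peak each. The NSC Ring1b peak was 1400 bp wide, compared with a median of 1800 bp. The 15 ESC Ring1b peaks had a median of 2200 bp (1200 to 5800 bp), compared with 2400 bp for the 1765 peaks at starts of any gene. The 11 Ezh2 peaks had a median of 1600 bp (1000 to 3800 bp), compared with 2000 bp, and the 18 H3K27me3 peaks 1600 bp (1000 to 5000 bp), compared with 1800 bp. The Cbx2 peak of Grid1 was 1000 bp wide, where the median over all genes was 3100 bp. In NSCs the 4 H3K27me3 peaks had a median of 1500 bp (1000 to 1800 bp), compared with 2000 bp. A width of 1000 bp, the narrowest in the lists, was found for 2 of the Ezh2 peaks (Grik3 and Grin2b) and 2 of the ESC H3K27me3 peaks (Grin2a and Grm3).

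Base composition was measured in the 1 kb around the most CpG-rich coding start of each gene. A start was called CpG-rich when its ratio of observed to expected CpGs was at least 0.6 and its GC content at least 50%. By this measure 21 of the 45 receptor genes (46.7%, interval 31.7 to 62.1%) had a CpG-rich start, about as many as among all genes (49.1%). The measure takes the most CpG-rich start, and the median number of coding starts was 2 for receptor genes and 1 for all genes. Whether base composition bears on the share of marked genes was not tested.

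Among the 21 CpG-rich receptor genes, Ring1b marked 9 in ESCs (42.9%, interval 21.8 to 66%), beside 15.2% of all CpG-rich genes. H3K27me3 marked 10 (47.6%, 25.7 to 70.2%), beside 11.6%, and Ezh2 marked 7 (33.3%, 14.6 to 57%), beside 6.62%. Any ESC list marked 11 (52.4%, 29.8 to 74.3%), beside 17.4%. Among the 24 other receptor genes, any ESC list marked 8 (33.3%, 15.6 to 55.3%), beside 3.79% of all genes without a CpG-rich start. In these genes Ring1b marked 5 (20.8%, 7.13 to 42.2%), beside 2.54%, and H3K27me3 marked 7 (29.2%, 12.6 to 51.1%), beside 2.65%. For ESC Ring1b, ESC H3K27me3 and any ESC list, the shares of receptor genes were above those of all genes in either class of starts. This did not hold for every list. NSC Ring1b marked 0% of the 21 CpG-rich receptor genes, beside 4.77%, and ESC Cbx2 0% of the 24 others, beside 0.605%.

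**Figure D3:**
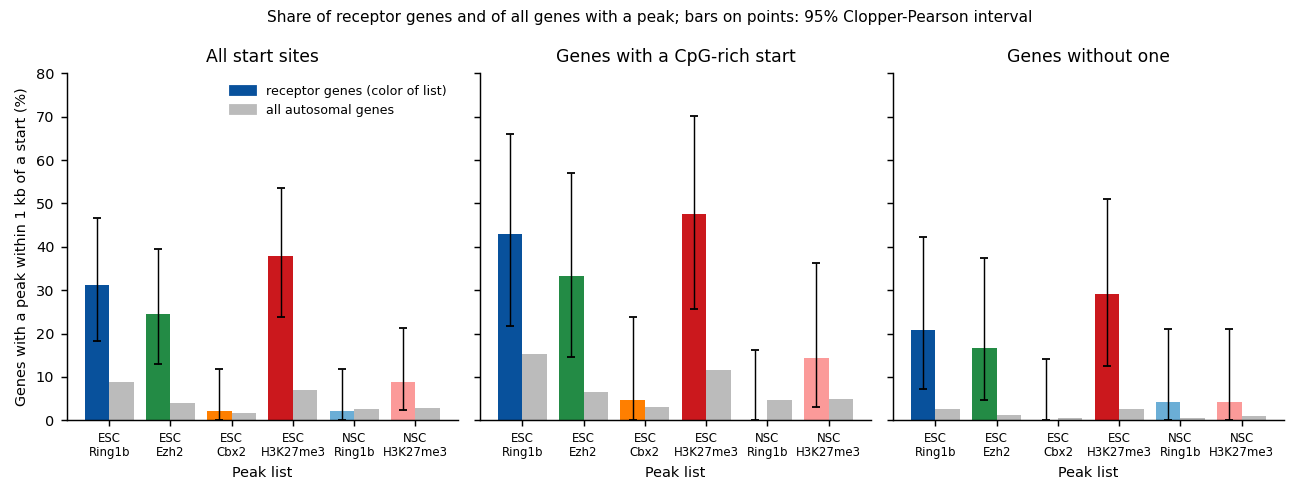
Colored bars give the share (%) of receptor genes with a peak within 1 kb of a start in each list, with 95% Clopper-Pearson intervals, and grey bars the share of all autosomal genes. The panels hold all genes, genes with a CpG-rich start (21 receptor genes) and genes without one (24). For ESC Ring1b, Ezh2 and H3K27me3 the intervals lie above the grey bars in each panel, and for Cbx2 and the NSC lists they reach down to or below them.

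Marked receptor genes had starts with fewer CpGs than other marked genes. The 19 marked in ESCs had a median CpG ratio of 0.647 (0.387 to 0.957), and 11 of them (57.9%) had a CpG-rich start. Over all 2244 genes marked in ESCs the median was 0.757, and 81.6% had a CpG-rich start. The 26 unmarked receptor genes had a median of 0.511 (0.142 to 0.975). Both ranges were wide: Grm3, with a ratio of 0.387, and Grin2b, with 0.431, were marked, whereas Grin1, with 0.975, and Grik4, with 0.890, had no peak at a start. Grin2a, with a ratio that rounds to 0.6, fell just under the limit.

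**Figure D4:**
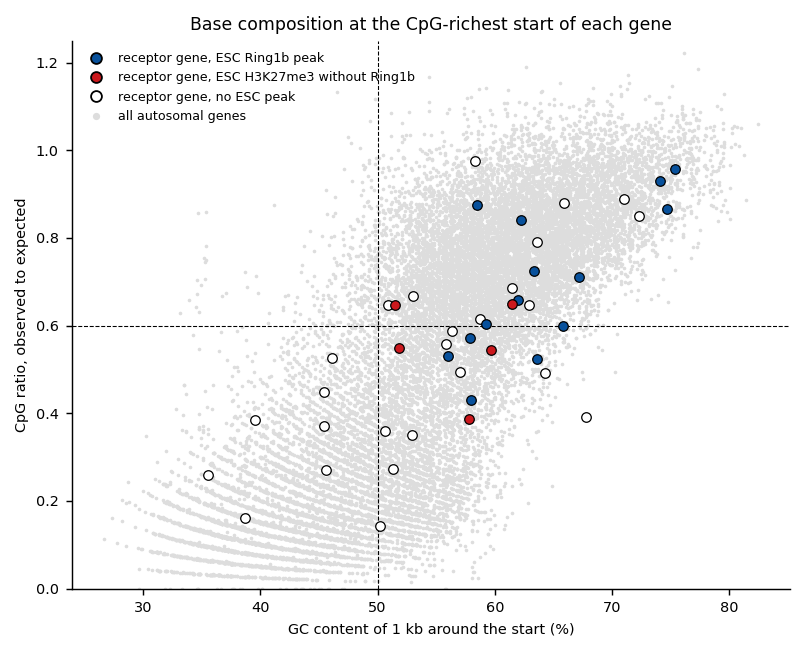
GC content (%) is plotted against the ratio of observed to expected CpGs in 1 kb around the most CpG-rich start of each gene, for receptor genes with ESC Ring1b (blue), with ESC H3K27me3 and no Ring1b (red) and with no ESC peak (white) over all autosomal genes (grey), and dashed lines mark 0.6 and 50%. Blue points range from a ratio of 0.431 (Grin2b) to 0.957 (Grm4), and white points lie on either side of the lines, up to 0.975 (Grin1).

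A few receptor genes had peaks inside the gene, away from any coding start of that gene. Peaks at the far end of 3 NMDA receptor genes were picked out after the lists had been seen. In Grin1, Ring1b covered 3000 bp (chr2:25144801-25147800), H3K27me3 4000 bp (chr2:25144401-25148400) and Ezh2 2200 bp in ESCs, at the 3′ end of the gene and 26.2 kb or more from its nearest start. NSC H3K27me3 covered 2600 bp of the same place (chr2:25145201-25147800). These peaks also lie within 1 kb of the start of the neighbouring gene Lrrc26, and the ESC H3K27me3 peak also within 1 kb of that of Tmem210. Which of the genes the peaks belong to cannot be told apart. A separate Ezh2 peak of 1000 bp lay 5.62 kb into Grin1.

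In Grin2d, Ring1b covered 2800 bp (chr7:53087601-53090400) and H3K27me3 3000 bp (chr7:53088001-53091000) in ESCs, about 31 kb from the nearest start and over several exons. NSC H3K27me3 covered 1800 bp (chr7:53088801-53090600), inside the ESC peak. In Grin2c, which was also marked at its start, Ring1b (chr11:115110601-115112400), Ezh2 and H3K27me3 (chr11:115110401-115112200) lay together in ESCs near the 3′ end, and NSC H3K27me3 covered 3200 bp (chr11:115110201-115113400). No other protein-coding gene had a start within 1 kb of the peaks in Grin2c and Grin2d. The NSC peak in Grin2c was wider than the ESC peak of 1800 bp, while the H3K27me3 peak at the start of Grin2c was absent in NSCs.

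Of the 5 ESC H3K27me3 peaks in receptor genes away from the starts of those genes, 3 overlapped an NSC H3K27me3 peak (60%, interval 14.7 to 94.7%). At starts 4 of the 18 did (22.2%, 6.41 to 47.6%). Over all genes the shares were 25.4% of 343 peaks within genes and at no start, and 29.3% of 1478 at starts. The overlapping peak in Grin1 lies within 1 kb of the starts of Lrrc26 and Tmem210, so the peaks within genes are not a like set. With 5 peaks, the interval covers each of these values. The GC content of the ESC H3K27me3 peaks at the far ends was 61% in Grin1, 61.6% in Grin2c and 64% in Grin2d. The median over all autosomal ESC H3K27me3 peaks was 57.7%. Their CpG ratios were 0.467, 0.598 and 0.755 in the same order, where the median over all such peaks was 0.603. The other receptor gene with internal peaks and none at a start was Grm5, with Cbx2 297.3 kb and H3K27me3 326.1 kb from the nearest start.

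**Figure D5:**
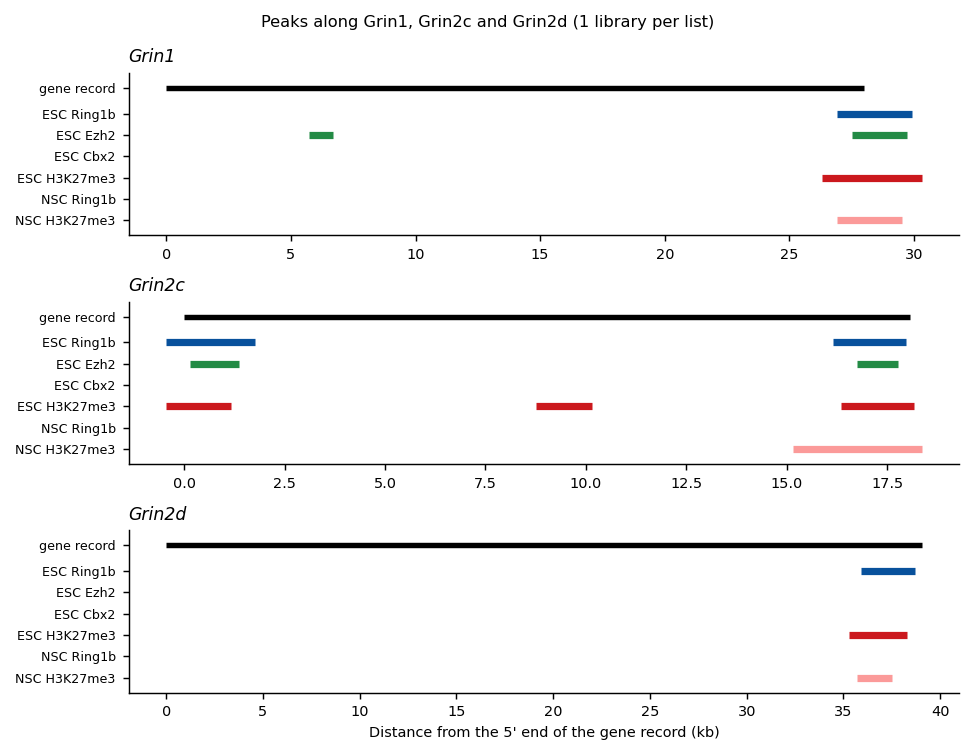
Peaks of each list along Grin1, Grin2c and Grin2d, by distance (kb) from the 5′ end of the gene record, which is drawn as a black bar. ESC Ring1b, ESC H3K27me3 and NSC H3K27me3 bars lie together at the far end of all 3 genes, and Grin2c alone has ESC bars at its start.

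Other genes of these synapses were taken from a list of 40 that covers transmitter synthesis, transport, GABA-B receptors, anchoring proteins and auxiliary subunits. In ESCs Ring1b lay at 16 of them (40%, interval 24.9 to 56.7%), beside 8.74% of all genes. H3K27me3 lay at 11 (27.5%, 14.6 to 43.9%), beside 7.02%, and Ezh2 at 5 (12.5%, 4.19 to 26.8%), beside 3.88%. Any ESC mark was found at 18 (45%, 29.3 to 61.5%), beside 10.5%. Cbx2 lay at 4 (10%, 2.79 to 23.7%), beside 1.77%: Gad1 and Gad2, which make GABA, Gabbr2, a GABA-B receptor subunit, and Nptx1, a pentraxin that gathers AMPA receptors. All 4 also had the other ESC marks. Slc32a1, the vesicular transporter of GABA and glycine, had Ring1b, Ezh2 and H3K27me3. In NSCs 3 of the 40 were marked (7.5%, 1.57 to 20.4%), beside 4.41% of all genes: Neto2, an auxiliary subunit of kainate receptors, and Nptx1 by Ring1b, and Slc6a5, a glycine transporter, by H3K27me3. The receptor genes and this list thus had like shares with any ESC mark, and the intervals for each mark overlapped.

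Genes that define the cell types were checked for the labels, by peak state alone since expression was not analysed here. Of 5 ESC genes, Pou5f1, Nanog, Zfp42 and Klf4 had no peak at a start in either cell type. Esrrb had Ring1b, Ezh2 and H3K27me3 in ESCs and H3K27me3 alone in NSCs. Of 4 NSC genes, Nes, Olig2 and Pax6 had Ring1b, Ezh2 and H3K27me3 in ESCs and no peak in NSCs, and Fabp7 had none in either. Sox1 was not matched in the annotation used and was not analysed here.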

How the data were processed

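Peak lists of 6 ChIP-seq libraries were analysed, and 4 input libraries were not analysed here. The authors deposited only the positions at which each peak begins and ends on mm9, and each line of a list holds nothing else. Per the paper's methods, the authors aligned paired-end tags with Bowtie, whereas the submitters' processing notes name BWA. They counted tags in sliding 1 kb windows, took input as the expected mean of a negative binomial test, chose its size parameter by looking at the calls, and merged neighbouring windows. Handling of tags with several alignments is not stated for these lists. A longer cross-linker before formaldehyde is stated for Ring1b in the paper's methods only. Where a list has no peak, enrichment below the calling threshold remains possible.

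Genes, coding transcript starts and base composition came from the GENCODE vM1 annotation and NCBIM37 sequence, the assembly of mm9, and 0 peaks ran past a chromosome end. Distances, shares and exact intervals were calculated with numpy 2.4.6 and scipy 1.17.1 under Python 3.11.15, and the counting script was tested on simulated data. Every receptor gene with a peak at a start was named, as were those with peaks only inside the gene, and others by family, except that a few are counted but not reported here by name and are not drawn by name. Alternatives were starts inside a peak or within 5 kb, peaks at least 2 kb wide, the 5′ end of the gene record, starts of all transcripts and CpG-rich starts. The gene rule, families and other lists were chosen with earlier results of these data known.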

Additional observations from a re-analysis of the deposited data

How the results depend on the processing

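The counts of marked receptor genes depended on how far a peak may lie from a start and on peak width. When the start had to lie inside a peak, Ring1b stayed at 14 genes in ESCs, beside 7.99% of all genes. Ezh2 fell to 7 (those lost included Grik3, Grin2b and Grin2c), beside 3.11% of all genes. Under the same setting Cbx2 fell to 0 (beside 1.36% of all genes), NSC Ring1b to 0 (2.04%) and NSC H3K27me3 to 2 (2.11%). Ring1b in both cell types fell to 0 (1.38%), H3K27me3 in both to 2 (1.39%) and all 4 ESC marks to 0 (0.999%). When peaks had to be at least 2 kb wide, Ezh2 fell to 4 (beside 2.1% of all genes) and ESC H3K27me3 to 6 (beside 3.4%). H3K27me3 in ESCs and not NSCs also fell to 6 (beside 2.37%). Cbx2, NSC Ring1b, NSC H3K27me3, Ring1b in both cell types, H3K27me3 in both and all 4 ESC marks then fell to 0, while ESC Ring1b lost Gabra4, Grik1, Grm6 and Grm7. With CpG-rich starts only, the share with NSC Ring1b was 0%, beside 4.77% of all such genes, since Grm8 is not among them. A distance of 5 kb, the 5′ end of the gene record and the starts of all transcripts each left all 14 counts within 1.5 times their value. So did leaving out Grid2ip, an alternative chosen after seeing the data.

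With 1 library per list the spread between replicates is unknown, as is sequencing depth. The lists hold no score, so width alone stood in for a stricter threshold. Ring1b was fixed differently from the other targets per the paper's methods, and the effect on the Ring1b lists was not tested. Intervals treat genes as independent, although some are neighbours in a cluster.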
